A study of Mus musculus with 6 samples.

Results

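The 1532 boundaries described here are places on the mouse autosomes where contact maps of both wild-type embryonic stem cells and cells with a shortened CTCF had a dip in contact across the locus. Contacts were measured by in-situ Hi-C, which ligates DNA ends that lie close together in crosslinked nuclei (cut here with MboI) and counts the joined pairs. The 3 libraries called WT came from strain 129 ES cells labelled wild type, and the 3 called Del8 from strain 129 ES cells labelled GFP-CTCF-Del8, whose CTCF lacks zinc finger 8 according to the series' design text. That text describes the comparison line as expressing GFP-CTCF and counts 3 biological replicates, whereas the WT labels name no tag. The labels give no clone, and contact counts at 50 kb check neither the deletion nor the cell type.

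Each boundary was chosen on 2 summed maps, 1 of the 3 WT libraries and 1 of the 3 Del8 libraries, each library scaled to the same total. The autosomes were divided into 50 kb bins with 20 or more contacts in every library, and each chromosome was balanced by iterative correction without the diagonal. The insulation score of a bin was the log2 of the mean contact in the 500 kb square that spans it over the chromosome's mean. A low score means little contact across the bin. A boundary was a local minimum with a prominence, its depth below the surrounding scores, of 0.2 or more on the log2 scale, and a WT boundary was shared where the Del8 map had one within 50 kb. The 1532 shared boundaries were 52.8% of the 2904 WT boundaries and 69.0% of the 2220 Del8 boundaries, among 3592 called in either map. The scores and prominences chose the members, so they are given as a description with no test. Scores and contacts of both groups at a shared boundary were read in its WT bin, also where the Del8 minimum lay in a neighbouring bin.

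CTCF binds DNA through a row of zinc fingers, and bound CTCF can halt the cohesin ring as it extrudes chromatin into loops. Borders of topologically associating domains therefore often lie at CTCF sites, and an insulation score reads such a border as a dip. Borders are also known to lie at the starts of active housekeeping and tRNA genes.

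The WT libraries did not cover the genome alike. The deposited files of WT replicates 1 and 2 had no lines beginning at 39.7% and 39.8% of the 47875 bins on autosomes. The share was 5.06% for WT replicate 3 and 1.78%, 4.37% and 14.5% for the Del8 replicates. At the shared boundaries these shares were 25.7%, 24.3% and 0.131% (WT) and 0.0653%, 0.587% and 8.55% (Del8). The libraries held 24038030, 24512722 and 36233407 contacts (WT) and 66266759, 46925260 and 38088173 (Del8), with contacts within a bin counted as deposited. In the coverage of screened bins WT replicate 3 differed less from the Del8 libraries (chi-square per degree of freedom 3.16, 2.76 and 2.80) than from the other WT libraries (4.43 and 5.03). Values per library were therefore taken on a map of 27671 screened bins with lines and adequate coverage in every library. Except for regions near the limits of the rule and those under Other observations, the regions named below come from 869 shared boundaries (56.7%). These boundaries are themselves screened and have 80% or more of their flanking bins screened. These 869 are called fully covered. The part of coverage in the results was not tested.

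The promoters below are shown because their genes start in shared boundaries on which the results turn. They are the 250 bases before the transcription start, from RefSeq on GRCm38.p6 (the same assembly as mm10). H1f2 (chr13:23738557-23738806, plus strand), Eif1 (chr11:100319699-100319948, plus strand), Cdc5l (chr17:45433708-45433957, minus strand) and Zfp933 (chr4:147848419-147848668, minus strand) belong to 4 of the 8 fully covered boundaries with the lowest scores. Kctd21 (chr7:97332073-97332322, plus strand), Nmur1 (chr1:86389362-86389611, minus strand) and Odf4 (chr11:68927082-68927331, minus strand) belong to the fully covered boundaries of lowest score whose promoters hold the CTCF core. Both rankings use the mean score of the summed maps that chose the boundaries. Capitals mark the only matches found: the CTCF core (CCA, any 2 bases, AG, any 2 bases, GGC, on either strand) in Kctd21, Nmur1 and Odf4, and in Zfp933 the ZNF143 motif, whose whole run of letters the capitals show.
H1f2: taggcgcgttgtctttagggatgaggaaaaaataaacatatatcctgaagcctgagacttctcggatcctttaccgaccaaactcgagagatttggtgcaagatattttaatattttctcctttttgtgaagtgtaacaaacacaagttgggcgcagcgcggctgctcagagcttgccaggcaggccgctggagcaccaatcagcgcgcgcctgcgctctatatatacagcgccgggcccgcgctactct
Eif1: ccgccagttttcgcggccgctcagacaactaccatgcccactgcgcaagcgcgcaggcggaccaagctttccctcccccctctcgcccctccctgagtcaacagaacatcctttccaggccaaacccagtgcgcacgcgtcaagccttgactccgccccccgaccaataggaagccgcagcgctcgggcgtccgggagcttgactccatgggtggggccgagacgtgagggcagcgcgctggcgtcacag
Cdc5l: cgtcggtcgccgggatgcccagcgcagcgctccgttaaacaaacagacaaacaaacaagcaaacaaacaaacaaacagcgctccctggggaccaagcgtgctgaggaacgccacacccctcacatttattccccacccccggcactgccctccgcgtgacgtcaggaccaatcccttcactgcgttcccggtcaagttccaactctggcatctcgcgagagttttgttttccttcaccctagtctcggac
Zfp933: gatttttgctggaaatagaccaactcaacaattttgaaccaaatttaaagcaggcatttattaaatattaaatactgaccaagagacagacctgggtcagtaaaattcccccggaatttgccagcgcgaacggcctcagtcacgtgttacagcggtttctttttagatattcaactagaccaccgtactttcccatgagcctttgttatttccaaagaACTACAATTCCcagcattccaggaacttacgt
Kctd21: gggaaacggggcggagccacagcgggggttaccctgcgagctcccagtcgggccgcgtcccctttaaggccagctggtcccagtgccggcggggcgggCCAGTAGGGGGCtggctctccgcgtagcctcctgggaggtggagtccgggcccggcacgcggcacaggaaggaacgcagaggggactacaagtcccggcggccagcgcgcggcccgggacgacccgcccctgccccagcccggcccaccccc
Nmur1: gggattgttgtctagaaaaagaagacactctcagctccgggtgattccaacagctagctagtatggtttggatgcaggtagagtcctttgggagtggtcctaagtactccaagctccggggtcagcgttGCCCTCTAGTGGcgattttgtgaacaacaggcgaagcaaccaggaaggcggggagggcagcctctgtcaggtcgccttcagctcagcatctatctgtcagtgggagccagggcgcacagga
Odf4: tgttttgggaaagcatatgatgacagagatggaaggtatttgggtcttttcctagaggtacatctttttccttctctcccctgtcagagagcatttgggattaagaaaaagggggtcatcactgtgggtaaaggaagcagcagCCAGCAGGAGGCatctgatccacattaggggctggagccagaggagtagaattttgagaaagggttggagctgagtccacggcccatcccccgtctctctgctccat

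The match in Kctd21 begins 152 bases before its start. The same bases lie in the promoter of its divergent neighbour Usp35 on the other strand, where it begins 73 bases before the start. In Nmur1 and Odf4 the matches begin 121 and 107 bases before the start, and the ZNF143 match of Zfp933 begins 32 bases before it. Among 1361 promoters with a start in a shared boundary bin, 2.79% held the CTCF core, against 2.02% of all 20084 promoters of the table. The ZNF143 motif stood in 0.661% against 0.408%, and the YY1 motif, AAGATGGCG, in 1.10% against 0.722%. The 3 motifs were searched on both strands and do not overlap one another. CpG content was higher at the boundaries: 55.8% of their promoters had an observed over expected CpG ratio above 0.6, against 45.9% of all. At boundaries called only in WT the CTCF core stood in 2.40% of promoters and the high CpG ratio in 52.5%, and at those called only in Del8 in 3.02% and 54.9%. These shares are descriptions of a 250-base window, not of bound sites.

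Protein-coding genes started more often in boundary bins than elsewhere. On chromosome 18 every gene start used here is the gene's lower coordinate, which is the far end of a minus-strand gene, so the genes named there, and the bins there said to hold none, rest on that coordinate. Over all autosomes the lower coordinate stood in for 20.4% of protein-coding genes, so bins elsewhere said to hold no gene start carry this limit in part. Such bins were searched for protein-coding genes only. Of the 1532 bins, 829 (54.1%) held a gene start, against 30.4% of all 44680 scored bins. Among the fully covered boundaries the share was 68.8%, against 43.7% of the 20772 bins with the same coverage, so coverage and gene content move together and the second pair is the fairer one. Fully covered boundary bins held 1.23 gene starts each, 0.978 and 0.945 stood 50 kb to either side, and 0.606 and 0.605 stood 1 Mb away. Boundaries called only in WT or only in Del8 had gene starts in 62.2% and 60.2% of their fully covered bins. The difference between the 3 kinds was not tested.

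**Figure D1:**
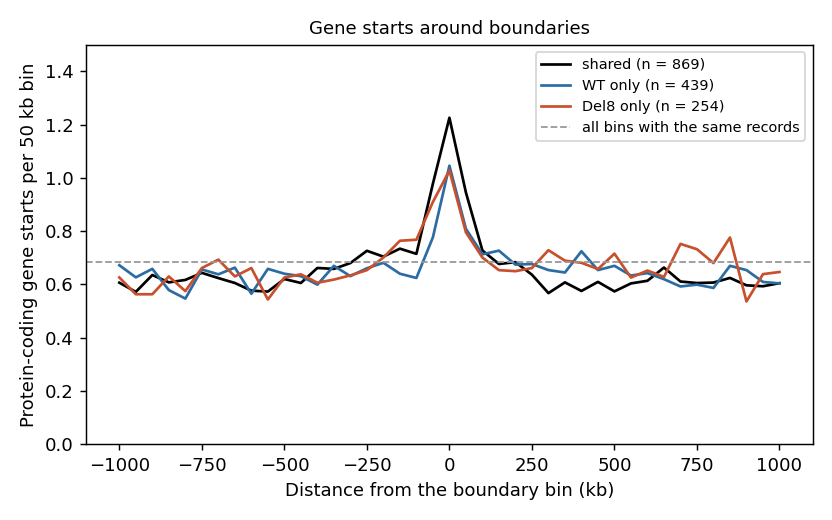
Mean number of protein-coding gene starts per 50 kb bin (vertical axis) against the distance from the boundary bin in kb (horizontal axis), for fully covered shared, WT-only and Del8-only boundaries. The shared boundaries peak at 1.23 starts at distance 0, and the dashed line is the mean of all bins with the same coverage, 0.686.

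Gene families differed in how often their start bins were shared boundaries. Over all bins with a gene start the share was 6.10%, and over all scored bins 3.43%. Ribosomal protein genes started in 73 bins, of which 12 (16.4%) were shared boundaries. Replication-dependent histone genes had 3 of 17 bins (17.6%), tRNA genes 15 of 145 (10.3%) and Zfp zinc finger genes 26 of 316 (8.23%). Olfactory receptor genes had 15 of 564 bins (2.66%), none of them fully covered, and clustered protocadherin genes 0 of 15. Hox genes, the transcription factors that pattern the body axis, had 2 of 13 bins, DNA methylation genes 2 of 15 (Mbd3 and Tdg), genes of CTCF, cohesin and their partners 2 of 18 (Ctcfl and Zfp143), imprinted genes 3 of 39 (Nnat, Gnas and Impact) and pluripotency genes 1 of 24 (Sox2). The lists with few bins allow no order between them.

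Shared boundaries lay a median of 1200 kb apart (150 to 12200 kb), at a density of 57.6 (chromosome 3) to 79.6 (chromosome 7) per 100 Mb. The Del8 minimum was in the same bin as the WT minimum at 1006 (65.7%), 1 bin lower at 250 and 1 bin higher at 276. A compartment is 1 of the 2 classes, gene-rich A and gene-poor B, into which a correlation matrix of contacts divides a chromosome. At 250 kb, 35.4% of the 912 screened shared boundaries with a usable neighbourhood lay where the compartment sign switched, against 26.9% of 21845 screened bins. Compartment A held 53.6% of 1071 shared boundaries and 50.3% of screened bins. The sign came from the leading component of that matrix that correlated best with gene density. It was component 3 on chromosome 6, component 2 on chromosomes 13, 14 and 16, and component 1 elsewhere. The correlation was 0.24 (chromosome 13) to 0.69 (chromosome 15), so the classes are less certain on some chromosomes.

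The dips were shallower in Del8 than in WT in the middle of the distribution. The median prominence of the 1532 was 0.93 in WT and 0.66 in Del8, and the median score was -0.65 and -0.41. On the screened map the 869 fully covered boundaries had median scores of -0.62, -0.61 and -0.56 for WT replicates 1 to 3, against -0.47, -0.47 and -0.47 for the Del8 replicates. The groups' medians did not overlap, and WT replicate 3 was the WT library nearest to Del8. At 472 of the 869 (54.3%) all 3 Del8 libraries were above all 3 WT libraries, and at 114 (13.1%) all were below. Over all 21901 scored bins these shares were 34.4% and 33.4%. Nothing is read from the contrast, because the same scores chose the members. The median difference in score, Del8 minus WT, was 0.11 at the 869 boundaries and 0.00058 over all scored bins. Between the summed screened maps it was 0.11 at the 604 fully covered boundaries with both minima in the same bin. At the 265 with the minima 1 bin apart it was 0.13. Without WT replicates 1 and 2, boundaries chosen again on the screened map numbered 950 and had a median difference of 0.076.

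**Figure D2:**
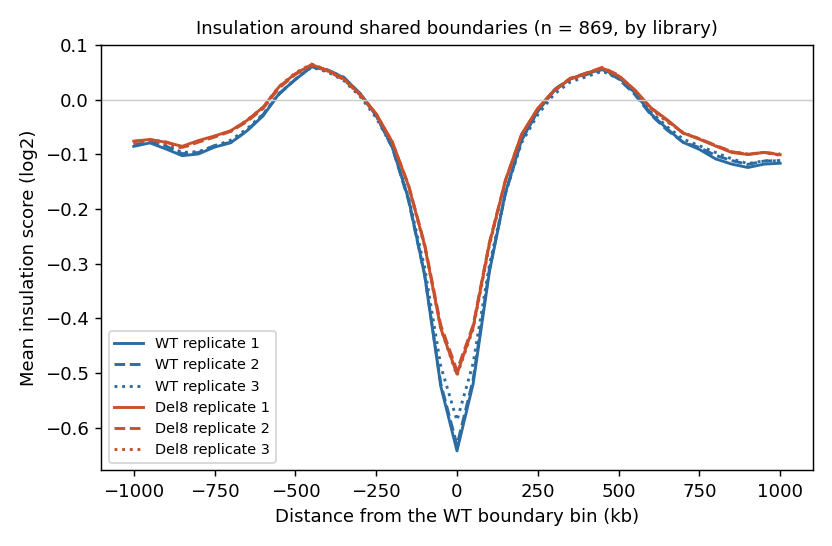
Mean insulation score (log2, vertical axis) against the distance from the WT boundary bin in kb, 1 line per library, over the 869 fully covered shared boundaries. At distance 0 the WT lines reach -0.64, -0.63 and -0.59 and the Del8 lines -0.50, -0.50 and -0.50, and 450 kb away all 6 lie between 0.05 and 0.07.

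The order of the boundaries was alike in both maps. Across the 869, the screened scores of WT and Del8 had a Pearson r of 0.86 and a Spearman rho of 0.82, a description across boundaries that share their libraries. Of these boundaries, 636 had the higher screened score in Del8 and 233 the lower one. When a library was left out of the summed maps, its own score still dipped at the boundaries chosen on the maps of the other 5. The bins open to the choice were still those screened by coverage in every library, the left-out one included. Relative to bins 250 kb away the median dip was -0.60, -0.59 and -0.54 for the left-out WT replicates 1 to 3 and -0.47, -0.47 and -0.48 in the left-out Del8 replicates. Between 99.4% and 99.9% of the 770 to 791 boundaries with both flanks were below their flanks in the library left out of the maps.

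**Figure D3:**
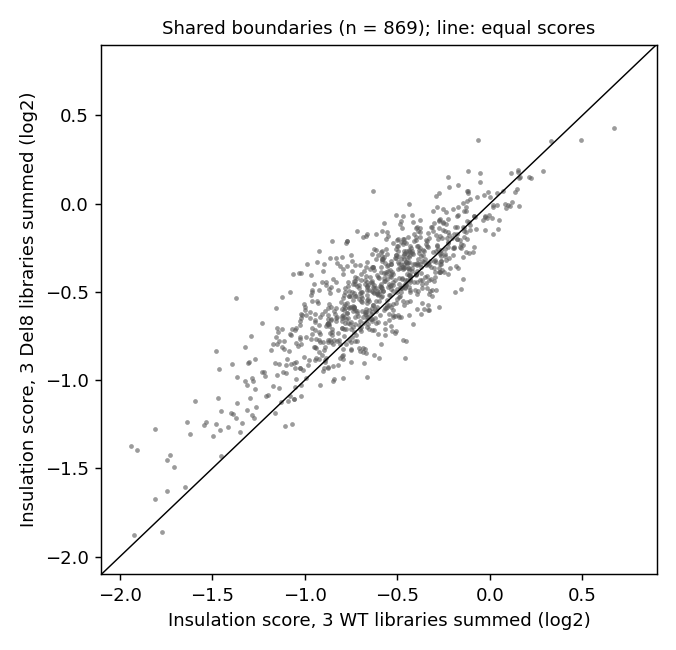
Insulation score of the summed Del8 libraries (vertical axis, log2) against that of the summed WT libraries (horizontal axis, log2) on the screened map, 1 point per fully covered shared boundary (n = 869). Above the line of equal scores lie 636 points, below it 233.

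Among fully covered boundaries, the lowest mean score of the looser summed maps belonged to the histone gene cluster on chromosome 13 (chr13:23700001-23750000), where the linker histone gene H1f2, the core histone genes H2bc3 and H3c3, and Hfe, which regulates iron uptake, start. Its score was -1.85, -1.77 and -1.67 for WT replicates 1 to 3, against -1.87, -1.74 and -1.97 for the Del8 replicates in the same order. The groups overlapped at the histone genes. At the boundary of Crip1, Tedc1 and Tmem121 (chr12:113150001-113200000) the WT values were -1.64, -1.69 and -1.58, and the Del8 values -1.30, -1.17 and -1.25. There every Del8 library was higher. The boundary of the zinc finger genes Zfp933 and Zfp984 (chr4:147800001-147850000) had -1.51, -1.82 and -1.61 in WT against -1.60, -1.65 and -1.59 in Del8, so the groups overlapped. Its difference between the summed maps changed sign without WT replicate 2, from 0.14 to -0.01, and was -0.19 without WT replicates 1 and 2.

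Polr2b encodes the second-largest subunit of RNA polymerase II, and its boundary (chr5:77300001-77350000) had scores of -1.18, -1.23 and -1.09 in WT against -1.05, -0.99 and -1.07 in Del8. It ranked among the 8 by the looser summed maps, with -2.00 in WT and -1.65 in Del8. On the screened map other fully covered boundaries were lower, such as chr18:36800001-36850000 with -1.74 in WT and -1.63 in Del8. Eif1, a translation initiation factor, and Gast, the precursor of the hormone gastrin, start in chr11:100300001-100350000, where the scores were -2.04, -2.01 and -1.77 in WT against -1.40, -1.38 and -1.35 in Del8. This was the widest gap among these 8 boundaries. Cdc5l, a spliceosome component (chr17:45400001-45450000), had -1.83, -1.79 and -1.81 in WT against -1.71, -1.63 and -1.68 in Del8. Mbtd1, a chromatin reader, and Utp18, a ribosome biogenesis factor (chr11:93850001-93900000), had -1.79, -1.71 and -1.62 in WT against -1.51, -1.47 and -1.51 in Del8. No gene started in the remaining one, chr5:134100001-134150000, which was lower than the histone boundary in both groups on the screened map (-1.92 and -1.88 against -1.77 and -1.86). There, both groups lay between -1.99 and -1.80 and overlapped, and a 250 kb square turned the difference between the summed maps from 0.04 to -0.21.

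Of the 5 fully covered boundaries with the largest upward differences between the summed maps, 3 held no gene start. At chr6:143200001-143250000 the scores were -1.39, -1.40 and -1.32 in WT against -0.55, -0.49 and -0.55 in Del8. The boundary of Kctd21 and the deubiquitinase gene Usp35 (chr7:97300001-97350000), whose shared promoter is printed above, had -1.17, -1.28 and -1.01 in WT against -0.61, -0.59 and -0.56 in Del8. At Rbfa, a mitochondrial ribosome-binding factor (chr18:80150001-80200000), the values were -0.74, -0.58 and -0.58 in WT against 0.03, 0.10 and 0.08 in Del8. The Del8 minimum of Rbfa lay 1 bin lower than the WT bin read here. At chr15:12900001-12950000 and chr1:12900001-12950000, also among the 5, it lay 1 bin higher. At these boundaries the Del8 scores are thus not those of the Del8 minimum. All 5 had higher scores in every Del8 library than in any WT library, as the choice by difference makes likely.

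Of the 5 with the largest downward differences, 2 held no gene start (chr19:57650001-57700000 and chr17:66150001-66200000). At Tada1, a subunit of the SAGA coactivator (chr1:166350001-166400000), the scores were -0.40, -0.41 and -0.26 in WT against -0.59, -0.59 and -0.60 in Del8. At Gtf3c3, a subunit of the RNA polymerase III factor TFIIIC (chr1:54400001-54450000), they were -0.22, -0.11 and -0.24 in WT against -0.51, -0.46 and -0.54 in Del8. At Rps24, a small-subunit ribosomal protein gene (chr14:24450001-24500000), they were -0.66, -0.56 and -0.57 in WT against -0.92, -0.84 and -0.87 in Del8. At these 3 the score was lower in every Del8 library than in any WT library, as the choice by difference makes likely.

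**Figure D4:**
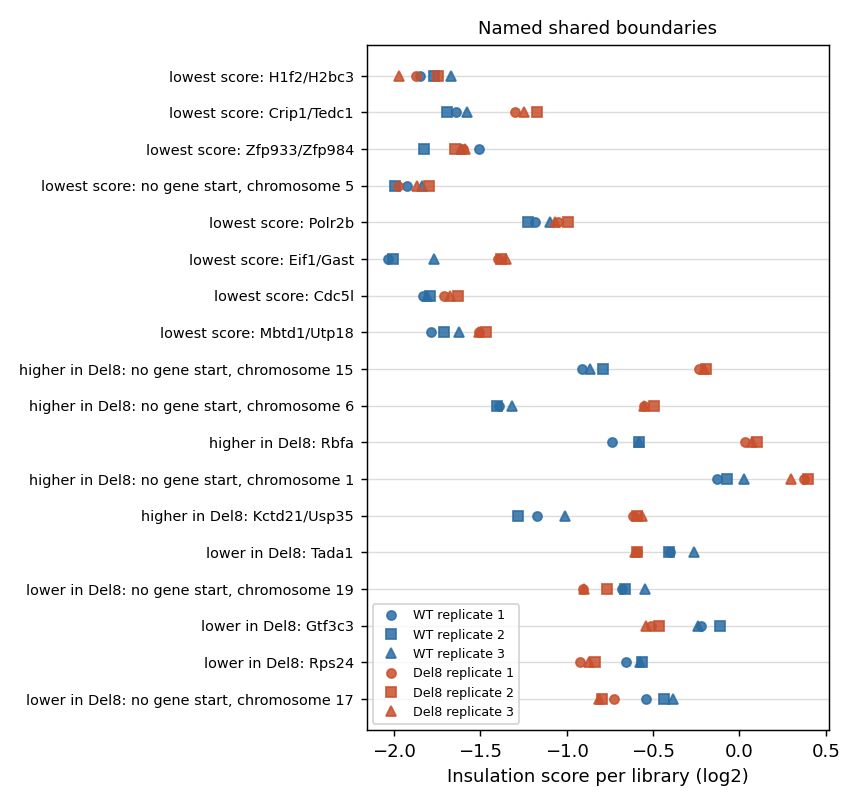
Insulation score per library on the screened map (log2, horizontal axis) at named fully covered shared boundaries. They are the 8 of lowest mean score on the looser summed maps and the 5 with the largest difference between those maps in each direction. Each is named by up to 2 genes that start there. Symbols give the replicate and colours the group. The values overlap between groups at H1f2, at Zfp933 and at the chromosome 5 boundary with no gene start.

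Contact over longer distances was compared outside the scored squares. Pairs of bins over 1 Mb and up to 2 Mb apart that lie on either side of a boundary, each within 1 Mb of it, are outside every 500 kb square, although they entered the balancing of the maps. Relative to the contact expected from distance and bin weights, contact across the 744 shared boundaries tested was 0.765 ± 0.0067 of expectation for WT (SD, n = 3 libraries) and 0.794 ± 0.0027 for Del8 (n = 3). Over all 18495 bins tested it was 0.855 ± 0.0043 and 0.866 ± 0.0024. In every library, long-range contact was thus lower across shared boundaries than across bins in general. The boundaries were chosen for low contact across the same bins at shorter distance, which makes this likely, so nothing further is read from it. The median tested boundary held 411 to 585 such contacts in the WT libraries and 697 to 1138 in the Del8 libraries.

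Long-range contact was higher in Del8 at 265 of the 744 (35.6%) and lower at 134 (18.01%) by edgeR's quasi-likelihood test with Benjamini-Hochberg adjustment over all bins. The background was 33.5% higher and 22.8% lower, so the members' shares were near it. The median log2 change was 0.05 at shared boundaries and 0.04 over all bins. With TMM factors the split at shared boundaries was 196 higher and 163 lower, and over all bins 4701 and 4910. Without WT replicates 1 and 2 it was 189 and 111 (25.4% and 14.9%), and over all bins 4526 and 3385 (24.5% and 18.3%). Neighbouring bins share pairs and are not independent.

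The boundary of Dele1, Pcdh12 and Rnf14 (chr18:38250001-38300000) had the largest rise among fully covered members. It was a shallow one, just inside the prominence limit of 0.2, with 0.241 in WT and 0.201 in Del8. Its long-range observed over expected contact was 0.615, 0.638 and 0.620 for WT replicates 1 to 3 and 1.14, 1.16 and 1.15 for the Del8 replicates, a log2 change of 0.88 ± 0.050 (SE; edgeR adjusted p = 9.44e-68). Its insulation scores in the 500 kb square overlapped between the groups, at -0.07, -0.19 and -0.05 against -0.14, -0.16 and -0.14. The largest fall was on the same chromosome, at chr18:36800001-36850000, where no protein-coding gene starts: 0.530, 0.452 and 0.531 in WT against 0.347, 0.330 and 0.329 in Del8, a log2 change of -0.59 ± 0.076 (SE; edgeR adjusted p = 1.42e-13). Between these boundaries, from 36930285 to 37841873, lie the 57 clustered protocadherin genes, which encode cell-surface proteins of neuronal identity and hold no shared boundary in their start bins.

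The other large rises were at chr7:113300001-113350000, which holds no gene start, at Cc2d1b (chr4:108600001-108650000) and at chr4:83550001-83600000, also without a gene start. The Cc2d1b boundary went from 0.446, 0.484 and 0.486 in WT to 0.841, 0.845 and 0.789 in Del8 (log2 change 0.80 ± 0.060, edgeR adjusted p = 3.74e-39). Of the large falls, that at Shh, the gene of a signalling protein that patterns limbs and neural tube (chr5:28450001-28500000), went from 1.43, 1.34 and 1.34 to 1.048, 1.04 and 1.02 (log2 change -0.40 ± 0.047, edgeR adjusted p = 7.21e-16). The other 2, chr6:89650001-89700000 and chr8:96800001-96850000, held no gene start and changed by -0.43 and -0.41. In all 8 the groups did not overlap, and the call held under all 11 alternatives, as their choice as the largest called changes makes likely.

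Among the deep boundaries, Eif1 had a rise in long-range contact, from 0.408, 0.507 and 0.469 in WT to 0.728, 0.686 and 0.755 in Del8 (log2 change 0.64 ± 0.064, edgeR adjusted p = 6.99e-22). At Cdc5l the values were 0.358, 0.406 and 0.462 in WT against 0.413, 0.411 and 0.380 in Del8, with no call (edgeR adjusted p = 0.655), and Mbtd1 had none either (edgeR adjusted p = 0.397). The Kctd21 and Usp35 boundary rose (log2 change 0.31 ± 0.059, edgeR adjusted p = 1.29e-06), as did that of Nmur1 and the nucleolin gene Ncl (0.38 ± 0.079, edgeR adjusted p = 5.81e-06). Odf4 shares its bin with the ribosomal protein gene Rpl26, and that boundary had no call (log2 change 0.04 ± 0.077, edgeR adjusted p = 0.666). Tada1 and Rps24 fell, by 0.38 and 0.20 on the log2 scale (edgeR adjusted p = 1.86e-13 and 5.31e-05), and Gtf3c3 had no call (edgeR adjusted p = 0.564).

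Of 9 ribosomal protein boundaries tested, 2 rose in long-range contact and 3 fell. Of the rises, Rpl32 (chr6:115800001-115850000) changed by 0.53 ± 0.060 (edgeR adjusted p = 1.83e-17). The falls were at Rps24, given above, and at Rps2 and Rps18, whose calls were lost under 3 and 5 of 11 alternatives. In the insulation score, 6 of the 11 fully covered ribosomal protein boundaries were higher in Del8 and 5 lower. In that score all 9 fully covered tRNA boundaries were higher in Del8 on the screened map, by 0.00 to 0.29, as were 636 of all 869. On the looser summed maps the boundary of n-TKctt17 was lower, by -0.06. In long-range contact 3 of 8 tRNA boundaries rose and 2 fell. Of the Zfp boundaries, 7 of 16 tested rose and 4 fell. Over all bins 33.5% were higher and 22.8% lower, and nothing particular to these 3 families is read from counts this small.

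At Sox2, a core pluripotency transcription factor of these cells (chr3:34600001-34650000), long-range contact across the boundary was high, at 2.02, 1.95 and 1.90 in WT against 1.66, 1.56 and 1.57 in Del8. The fall was 0.28 ± 0.050 on the log2 scale (edgeR adjusted p = 1.2e-07), and no library of one group reached the other. Its insulation scores overlapped: -0.33, -0.29 and -0.20 in WT against -0.41, -0.36 and -0.32 in Del8. The Hox boundaries split. The bin of Hoxd9 to Hoxd13 and Evx2 (chr2:74650001-74700000) went from 1.08, 0.993 and 1.07 to 0.865, 0.881 and 0.852 (log2 change -0.28 ± 0.057, edgeR adjusted p = 5.58e-06). The bin of Hoxa3 to Hoxa11 (chr6:52200001-52250000) went from 0.752, 0.825 and 0.826 to 0.893, 0.920 and 0.882 (log2 change 0.16 ± 0.055, edgeR adjusted p = 0.00742), and this call was lost without WT replicate 1, alone or with replicate 2 (adjusted p up to 0.173 over the alternatives).

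Among genes linked to CTCF and imprinting, Zfp143, which encodes a factor found with CTCF at many borders (chr7:110050001-110100000), rose by 0.25 ± 0.055 in long-range contact (edgeR adjusted p = 2.73e-05). Ctcfl, the germline paralogue of CTCF (chr2:173050001-173100000), had higher insulation scores in Del8, -0.12, -0.15 and -0.14 against -0.38, -0.36 and -0.39, and no call in long-range contact (edgeR adjusted p = 0.132). The imprinted gene Nnat (chr2:157550001-157600000) rose by 0.23 ± 0.051 (edgeR adjusted p = 1.77e-05). At Impact, another imprinted gene (chr18:12950001-13000000), the scores were -1.12, -1.07 and -1.04 in WT against -0.50, -0.48 and -0.52 in Del8, with no long-range call (edgeR adjusted p = 0.292). Gnas, the third imprinted gene (chr2:174250001-174300000), went the other way in score, with 0.14, 0.07 and 0.08 for WT and -0.06, 0.02 and 0.01 for Del8, and was not tested in long-range contact. At Impact and Gnas the Del8 minimum lay 1 bin higher than the WT bin where these scores were read. Mbd3, a subunit of the NuRD repressor (chr10:80350001-80400000), had a change of -0.09 in long-range contact whose call (edgeR adjusted p = 0.0494) was lost under 7 of 11 alternatives.

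Contact within the 50 kb bin, which the maps left out, was called at almost no boundary. Of 1116 tested by edgeR, 0 were higher and 1 lower, against a background of 0.0217% and 0.0253% of 27671 bins. Over all those bins 2157 had an unadjusted p under 0.05, and DESeq2 called 2 higher and 5 lower, none of them members. The member called, named after its value was seen, was that of the cell-cycle genes Cdc23 and Kif20a (chr18:34600001-34650000), whose within-bin contact relative to expectation was 2.11, 2.06 and 1.42 in WT against 1.37, 1.29 and 1.10 in Del8 (log2 change -0.56 ± 0.12, edgeR adjusted p = 0.0133). WT replicate 3 lay near Del8, and the call was lost under 7 of 11 alternatives, among them DESeq2 and leaving out WT replicates 1 and 2.

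Successive shared boundaries contacted each other more than loci shifted off them. Of the successive shared boundaries over 1 Mb and up to 2 Mb apart, 330 pairs had both bins and at least 1 shifted pair among the screened bins. Their observed over expected contact was 1.34, 1.31 and 1.26 for WT replicates 1 to 3 and 1.21, 1.24 and 1.21 for the Del8 replicates. For pairs of the same separation shifted by 250 kb it was 0.803, 0.814 and 0.879 in WT against 0.868, 0.899 and 0.837 in Del8. In every library the boundary pairs were thus above the shifted pairs. Both ends of a shifted pair moved the same way, so each shifted pair spanned at least 1 of the 2 boundaries. Those boundaries were chosen for low contact across them, which makes lower contact of the shifted pairs likely. Nothing about contact between boundaries is therefore read from the excess. The ratio of boundary pairs to shifted pairs was 1.57 ± 0.12 for WT (SD, n = 3) and 1.404 ± 0.036 for Del8 (n = 3). In this ratio WT replicate 3, at 1.43, lay below Del8 replicate 3, at 1.44. The groups thus overlapped in this ratio. They did not overlap with only fully covered boundaries (259 pairs), at 1.53, 1.54 and 1.42 for WT and 1.35, 1.32 and 1.38 for Del8, nor with a shift of 500 kb (315 pairs), at 1.57, 1.54 and 1.57 for WT and 1.48, 1.42 and 1.43 for Del8. The pairs held 1298 to 1772 contacts per library in WT and 1959 to 3211 in Del8.

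**Figure D5:**
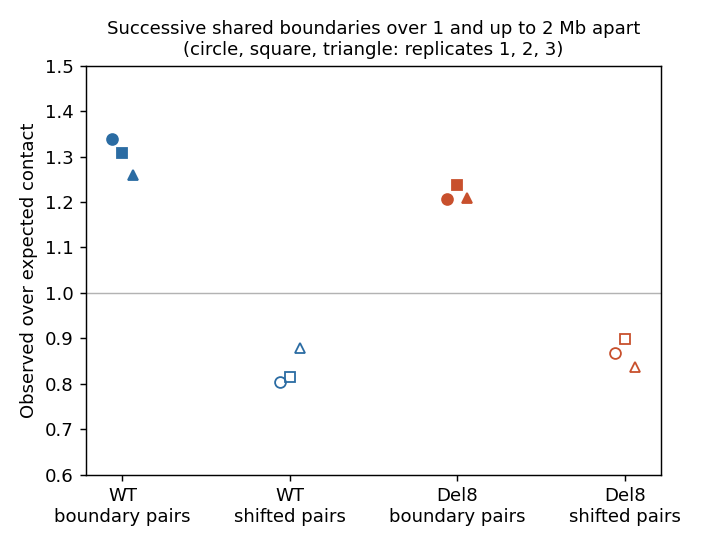
Observed over expected contact (vertical axis) between successive shared boundaries over 1 Mb and up to 2 Mb apart (filled, 330 pairs) and between pairs shifted by 250 kb (open), 1 symbol per library. All 6 filled symbols lie above 1.2 and all 6 open symbols below 0.9. Each shifted pair spans at least 1 of the boundaries chosen for low contact across them.

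Members just inside the prominence limit were chr4:57300001-57350000 (0.2003 in Del8), chr17:23150001-23200000 (0.2004 in WT) and chr13:94950001-95000000 (0.2005 in Del8). Just outside it, the WT boundaries chr12:103350001-103400000, chr6:18200001-18250000 and chr3:104650001-104700000 had a Del8 minimum of 0.1996, 0.1992 and 0.1986. A further 165 WT boundaries had their nearest Del8 boundary 100 kb away, those of highest WT prominence being chr17:6700001-6750000 (4.45), chr19:9700001-9750000 (3.67) and chr5:145150001-145200000 (2.97). The members of highest WT prominence with the Del8 minimum 1 bin away were chr7:31100001-31150000 (3.98), chr7:32100001-32150000 (3.82) and chr15:12900001-12950000 (2.80). Of the members in this paragraph, chr17:23150001-23200000, chr7:31100001-31150000 and chr7:32100001-32150000 were not fully covered.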

How the data were processed

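The authors deposited raw contact counts of 50 kb bin pairs within chromosomes, 1 file per library, with bins on mm10 (per the submitters' processing notes). No source used here gives the aligner or the filters. Diagonal values were even in every file and were halved. The members and gene lists were chosen with earlier results of these data known. Named regions were the 8 lowest mean scores of the looser summed maps and the 5 largest differences between those maps in each direction. The 4 largest called long-range changes in each direction were named too, all of these among fully covered members. List genes in member bins and members nearest the limits were also named. A gene start was the promoter table's transcription start for 16456 genes and the lower coordinate for the other 4205.

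Screened bins had lines in every file and scaled coverage of at least 0.5 of the third highest library. Maps and scores used Python with NumPy and SciPy. Long-range and within-bin counts were tested with edgeR 4.0.16 (glmQLFit, glmQLFTest), with expected counts as offsets, a mean count of 10 or more and adjusted p under 0.05 over all bins. DESeq2 1.42.0, TMM factors, no minimum count, a replicate block and left-out libraries were tried. Dropping the minimum count added no bin, so that alternative repeated the main fit and could change no call. The code was tested on simulated data. Contacts on chromosome X entered no comparison. 1 result among the gene lists is not reported here.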

Additional observations from a re-analysis of the deposited data

Results flagged for a closer look

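Chromosome X took no part in the choice of boundaries, and its contacts are given because the Del8 libraries lay above the WT libraries there. It held 1.65%, 1.17% and 0.787% of contacts in Del8 replicates 1 to 3 and 0.0057%, 0.0098% and 0.346% in WT replicates 1 to 3. WT replicates 1 and 2, the lowest, were also the libraries with the most autosomal bins without lines, whose part was not tested.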

How the results depend on the processing

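Of the 1532 shared boundaries, 1006 remained where the same bin was required (34.6% of WT boundaries). With a 250 kb square 2573 were called, and on the stricter coverage screen 963. Of the 1532 members, 787 (51.4%) had a shared boundary of the stricter screen within 50 kb. Prominences of 0.1 and 0.3 gave 2044 and 1249. Leaving out 1 library gave 1460 to 1668 boundaries (50.3% to 57.4% of WT boundaries) and median differences of 0.17 to 0.20 around the 0.19 of the chosen maps. Without WT replicates 1 and 2 the median difference was 0.14. On the stricter screen it was 0.10, and leaving out 1 library there (added after seeing the data) gave 964, 967 and 974 boundaries for WT replicates 1 to 3 and 965, 971 and 958 for Del8, with median differences of 0.10 to 0.11. Without WT replicates 1 and 2 the screen left 950 boundaries and a median difference of 0.076. Leaving out WT replicate 3 on the looser bins, and testing on those bins, were not run, because the maps of WT replicates 1 and 2 could not be balanced there.

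Same-numbered libraries did not deviate together in the insulation score (correlations of 0.014, -0.0145 and -0.0192, against -0.0345 to 0.0474 for other numbers). Whether same-numbered libraries were prepared together cannot be told from this. With a replicate block the long-range calls at members were 264 higher and 131 lower and the within-bin calls 0 and 1. The median difference over same-numbered pairs was 0.11. Long-range calls with 1 library left out were 238 to 259 higher and 113 to 127 lower. The single within-bin call became 0 under DESeq2, TMM factors and without WT replicates 1 and 2, and was 0 to 1 with 1 library left out. The ratio difference between successive boundaries was -0.16, with a range of -0.23 to -0.12. Score differences at 18 named boundaries kept their direction in 141 of 144 alternatives, and the exceptions were at Zfp933 and at chr5:134100001-134150000. Many of the 18 were named for the largest differences between the summed maps, and the alternatives drew on the same libraries. A kept direction was therefore likely at those boundaries, and nothing further is read from the count.

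Depth differed between the groups, and WT replicates 1 and 2 lack lines at many bins, so only 921 of the 1532 members had a score in each library.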

Other observations

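The 663 shared boundaries that were not fully covered held the lowest scores of all, given as values only. Their median score was -0.66 in WT and -0.35 in Del8. The lowest named one lay at the zinc finger gene Zfp971 (chr2:178000001-178050000), with -4.18 in WT and -2.03 in Del8, and Zfp873 (chr10:82000001-82050000) had -2.05 and -2.61. The tRNA cluster with n-TIaat11 (chr13:21850001-21900000), next to the histone genes, had -1.78 and -2.20. Rps23 (chr13:90900001-90950000), a ribosomal protein gene, had -1.63 and -0.93, and the olfactory receptor gene Olfr1274 (chr2:90400001-90450000) -1.88 and -1.25. These 5 were chosen after their values were seen.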
